A study of Mus musculus with 6 samples.

Results

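The 10 genes described here serve protein folding and stress signalling in the endoplasmic reticulum, and they were followed in mouse calf muscle without the long non-coding RNA lnc-ORA: the lumenal chaperones Hspa5 and Hsp90b1, the lectin chaperones Calr and Canx, the disulfide isomerases Pdia3, Pdia4 and Pdia6, and the transcription factors Xbp1, Atf4 and Ddit3. They were chosen by name, with earlier results of these data known, and all 10 were found among the 11815 genes of the deposited table. All 10 stood above 1 RPKM (reads scaled by gene length and by the total reads of the library) in every library and were tested. The study asked how lnc-ORA takes part in the conversion of muscle fibre types, by sequencing RNA of the gastrocnemius at 15 weeks of age. The tested mice were lnc-ORA knockouts (KO, 3 libraries, replicates 1 to 3), made on a C57BL/6 background by injecting Cas9 mRNA and a pair of guide RNAs into fertilised eggs, which removed a region of 5147 bp. They were set against wild-type mice (WT, 3 libraries, replicates 2 to 4). Sex, zygosity, the number of founder lines and whether libraries are separate animals are not stated in the labels, so p-values measure the spread between these libraries only. The level of lnc-ORA was not analysed here, and the genotypes were taken from the labels.

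The endoplasmic reticulum folds secreted and membrane proteins, and in muscle fibres its specialised form, the sarcoplasmic reticulum, also stores calcium. Hspa5 (BiP) holds unfolded chains and keeps the stress sensors Ern1, Eif2ak3 and Atf6 inactive until such chains build up, after which Atf6 and spliced Xbp1 switch on chaperone genes. The sensor Eif2ak3 acts through translation of Atf4, which in turn activates Ddit3 (CHOP). RNA levels show neither the splicing of Xbp1 nor the translation of Atf4.

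Counted reads came to 55607994 to 68718183 in KO libraries and 54370181 to 69693905 in WT libraries, and each of the 10 genes had at least 517 reads in every library, so that counting error was at most 3.88% of a value on average. All 12 markers of skeletal muscle fibres were present, with summed levels of 156000 to 172000 RPKM in KO and 137000 to 157000 RPKM in WT. The 10 most abundant genes took 50.2% to 53.9% of the reads in KO and 44.4% to 48.3% in WT, and the RPKM of every other gene depends on that share. The median log2 fold change of the 7574 tested genes was -0.09, and it was 0.01 with library medians made equal and 0.03 with library totals taken without those 10 genes. Of all tested genes 17.3% were called, 3.83% as higher and 13.5% as lower in KO. With equal medians these shares were 7.84% and 9.33%, and without the 10 most abundant genes 8.96% and 8.11%. In WT replicate 2, 8 of the 10 genes had the highest level of their group, and in KO replicate 3, 7 of the 10 had the lowest.

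A promoter sequence is shown first, because 5 of the chaperones and isomerases held it whole and the others without its last base. None of the transcription factors held an exact match of either form. The endoplasmic reticulum stress element (ERSE), which Atf6 and the CCAAT-binding factor NF-Y bind, is CCAAT and CCACG with 9 bases of any kind (N) between them. It was searched on both strands of RefSeq windows (GRCm38.p6) from 250 bases before to 50 bases after each annotated start site. All 10 genes had such a window. In the lines below, capitals mark the fixed bases of the element. Where the element lies on the opposite strand the capitals show its reverse complement.
Hspa5, chr2:34772013-34772055, plus strand: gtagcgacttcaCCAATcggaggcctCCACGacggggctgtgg
Hsp90b1, first element, chr10:86705626-86705668, minus strand: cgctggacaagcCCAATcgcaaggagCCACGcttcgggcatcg
Hsp90b1, second element, chr10:86705521-86705563, minus strand: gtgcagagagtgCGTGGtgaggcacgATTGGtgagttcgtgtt
Calr, chr8:84847063-84847105, minus strand: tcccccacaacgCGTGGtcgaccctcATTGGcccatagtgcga
Canx, chr11:50325788-50325830, minus strand: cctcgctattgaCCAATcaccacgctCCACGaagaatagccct
Pdia6, chr12:17266479-17266521, plus strand: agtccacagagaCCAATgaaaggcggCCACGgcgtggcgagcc
Pdia3, chr2:121413861-121413901, plus strand: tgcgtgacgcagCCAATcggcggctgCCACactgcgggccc
Pdia4, chr6:47813590-47813631, minus strand: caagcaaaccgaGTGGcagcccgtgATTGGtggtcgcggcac

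The whole element was present in 5 of the 10 windows (Hspa5, Hsp90b1, Calr, Canx and Pdia6), against 39 of 32851 mouse windows (0.119%). Hsp90b1 held it in 2 places. Without its last base (CCAAT, the same 9 bases, then CCAC, which every whole element also matches) it was present in 7 of the 10 windows, with Pdia3 and Pdia4 added, against 0.365% of all windows. These 7 are the chaperones and isomerases, and the windows of Xbp1, Atf4 and Ddit3 held no match. Atf6 binds this element and switches on chaperone genes, so matches in their windows were likely beforehand. These shares describe the windows and are no test of the present data. The amino acid response element bound by Atf4 (TGATGNAA, 3.97% of windows) and ERSE-II (ATTGG and CCACG with 1 base between them, 0.0365%) had no match in any of the 10 windows. Sequence more than 250 bases before a start site was not searched, so sites there would be missed. Only exact matches of these forms were sought, so elements that differ at another base would be missed too, also in Xbp1, Atf4 and Ddit3. The core of the unfolded protein response element (TGACGTG, 2.01% of windows) occurred in Hspa5 alone, 157 bases before its start site. The 250 bases before the start site of Hspa5, with this core and the whole ERSE in capitals, are given for context (chr2:34771840-34772089, plus strand).
Hspa5 upstream window: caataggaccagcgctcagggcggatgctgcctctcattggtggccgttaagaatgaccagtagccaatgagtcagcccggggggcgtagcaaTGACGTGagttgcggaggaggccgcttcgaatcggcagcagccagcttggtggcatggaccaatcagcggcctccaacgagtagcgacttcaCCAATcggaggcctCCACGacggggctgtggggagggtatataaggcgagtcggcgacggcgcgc

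**Figure D1:**
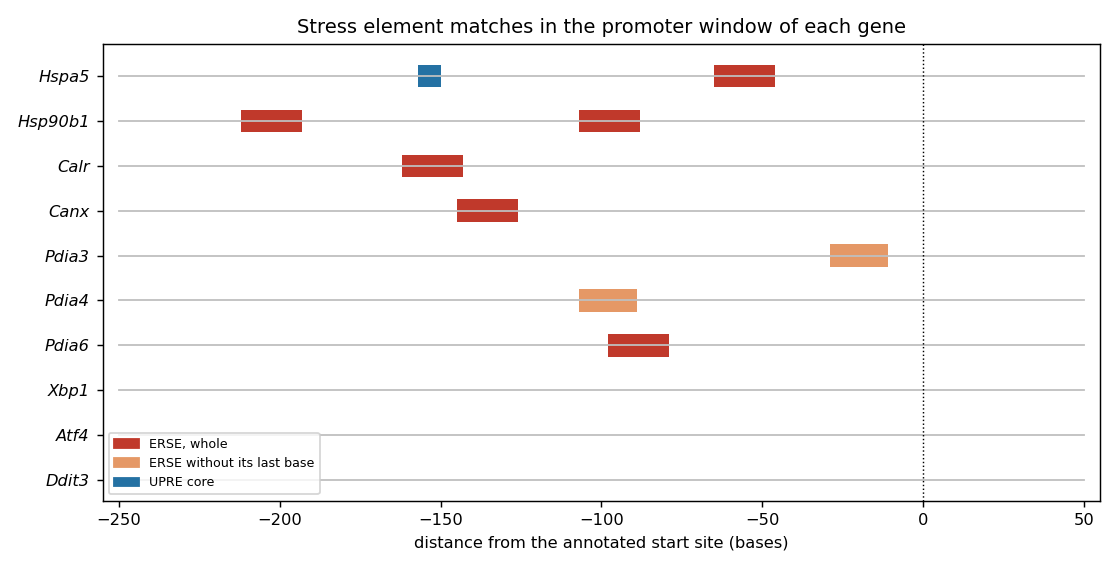
Position of element matches in the promoter window of each gene, as distance from the annotated start site in bases (negative is upstream); colours mark the whole ERSE, the ERSE without its last base and the UPRE core. The 5 genes with the whole element hold it upstream of the start site, Pdia3 and Pdia4 lack its last base, and the rows of Xbp1, Atf4 and Ddit3 are empty.

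Both lumenal chaperones rose in KO muscle. Hspa5 stood at 27.7, 27.7 and 27.6 RPKM in KO replicates 1, 2 and 3, against 19.6, 19.1 and 19.9 RPKM in WT replicates 2, 3 and 4. The groups were far apart, and the KO libraries differed by less (a coefficient of variation of 0.282%) than counting error alone gives (1.18%). The mean was 27.7 ± 0.0781 RPKM in KO and 19.6 ± 0.386 RPKM in WT (SD, n = 3 each). On the log2(RPKM + 1) scale the difference was 0.48 (SE 0.07, limma adjusted p = 0.00556). The call held without any single library, with adjusted p of up to 0.0356.

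Hsp90b1 (GRP94), the HSP90 of the endoplasmic reticulum, which folds integrins and Toll-like receptors among others, stood at 67.2, 73.5 and 64.5 RPKM in KO and at 57.1, 51.2 and 52.2 RPKM in WT. Every KO library lay above every WT library. The log2 fold change was 0.35 (SE 0.09, adjusted p = 0.0322). The call ended without KO replicate 1, 2 or 3 or WT replicate 3, with adjusted p of up to 0.105. Exons of the pseudogene 1810014B01Rik (opposite strand), the transcript Gm15344 and the microRNA gene Gm25745 (both same strand) overlap Hsp90b1 in GENCODE M21. These averaged 57.0, 187 and 373 RPKM in KO and 45.1, 152 and 280 RPKM in WT. Strand handling is not given, so reads from the overlapping stretches cannot be told apart. In limma 1810014B01Rik was itself called higher (0.33, adjusted p = 0.024). Gm15344 and Gm25745 were not (0.30 and 0.41, adjusted p of 0.059 and 0.12). Of the 50-base stretches of the longest Hsp90b1 transcript 1.2% occur in Gm15344; how much of it the opposite-strand pseudogene covers was not measured.

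The lectin chaperones, which bind sugar chains of new glycoproteins, gave no call. Calr, the lumenal lectin and a calcium buffer, was the most abundant of the 10 genes. It stood at 93.3, 91.6 and 82.5 RPKM in KO and at 89.0, 84.3 and 81.1 RPKM in WT, with overlapping groups. Its log2 fold change was 0.07 with a 95% interval of -0.13 to 0.27 (adjusted p = 0.599). Canx, its membrane-bound relative, stood at 15.1, 20.7 and 17.0 RPKM in KO and at 21.3, 16.4 and 14.9 RPKM in WT. The library numbered 2 was the highest of each group, and the spread within groups was the largest of the 7 chaperones and isomerases in WT (a coefficient of variation of 16.1% in KO and 19.0% in WT). The log2 fold change of Canx was 0.01, with a wide 95% interval of -0.34 to 0.36 (adjusted p = 0.982).

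Of the isomerases, which form and rearrange disulfide bonds, Pdia6 rose. It stood at 10.2, 10.1 and 9.33 RPKM in KO, against 7.38, 6.39 and 6.82 RPKM in WT. The groups did not overlap, and the mean was 9.86 ± 0.459 RPKM in KO and 6.86 ± 0.498 RPKM in WT (SD, n = 3 each). The log2 fold change was 0.47 (SE 0.08, adjusted p = 0.00956), and without any single library the adjusted p was at most 0.0438. Exons of Atp6v1c2 on the opposite strand overlap Pdia6.

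Pdia3 (ERp57), the partner of Calr and Canx, stood at 8.39, 8.56 and 7.04 RPKM in KO and at 8.17, 6.74 and 7.72 RPKM in WT, with a log2 fold change of 0.07 (95% interval -0.16 to 0.31, adjusted p = 0.651). Pdia4 (ERp72) stood at 5.67, 5.92 and 4.32 RPKM in KO and at 4.73, 3.96 and 4.65 RPKM in WT. Its KO replicate 3 lay within the WT range and the other two KO libraries above it. The log2 fold change of Pdia4 was 0.20 (95% interval -0.07 to 0.48, adjusted p = 0.264). The opposite strand of Pdia3 carries exons of Catsper2, which averaged 0.514 RPKM in KO and 0.919 RPKM in WT.

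**Figure D2:**
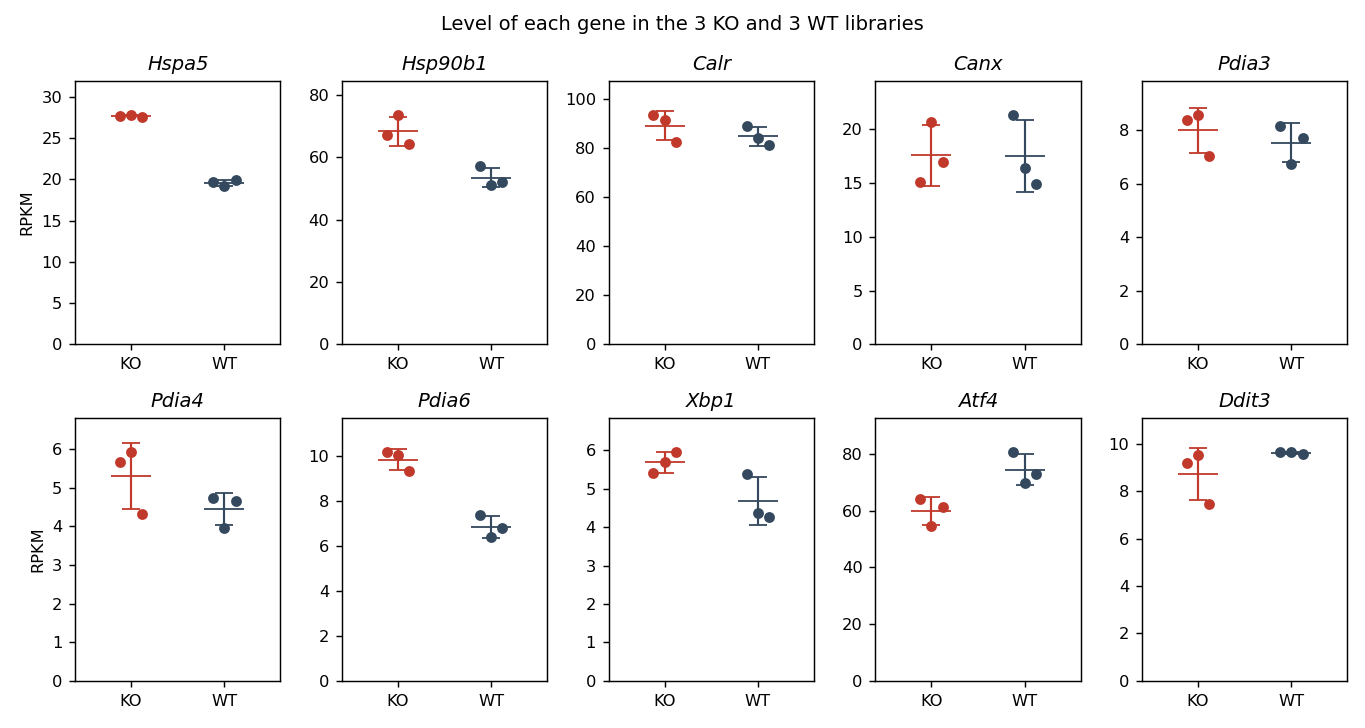
RPKM of each gene in the KO (left) and WT (right) libraries, 1 panel per gene with its own axis from 0; points are libraries, and the bar and whiskers are the mean and SD of 3. The KO points of Hspa5, Hsp90b1, Pdia6 and Xbp1 lie above all WT points, those of Atf4 and Ddit3 below, and the groups of the other genes overlap.

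None of the transcription factors was called. Xbp1, whose spliced form activates chaperone and degradation genes, stood at 5.40, 5.71 and 5.96 RPKM in KO, against 5.39, 4.38 and 4.28 RPKM in WT. The lowest KO library was barely above WT replicate 2. The log2 fold change was 0.24 (SE 0.10, adjusted p = 0.124). It passed without WT replicate 2 (adjusted p = 0.0363), with equal library medians (0.35, adjusted p = 0.0162) and when the 10 most abundant genes were left out of the totals (0.40, adjusted p = 0.0202).

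Atf4 stood at 64.3, 54.5 and 61.3 RPKM in KO, against 80.7, 69.8 and 73.1 RPKM in WT. All KO libraries lay below all WT libraries, yet the log2 fold change of -0.31 (95% interval -0.53 to -0.09) did not pass (adjusted p = 0.062). It was -0.18 with equal medians and -0.16 without the 10 most abundant genes (adjusted p of 0.259 and 0.311). Ddit3, which promotes cell death under lasting stress, stood at 9.21, 9.53 and 7.48 RPKM in KO and at 9.65, 9.65 and 9.58 RPKM in WT. The WT libraries differed by less (a coefficient of variation of 0.45%) than counting error gives (3.11%). The log2 fold change of Ddit3 was -0.13 (95% interval -0.36 to 0.09, adjusted p = 0.376), and it was 0.0023 without the 10 most abundant genes. Exons of Mars, on the opposite strand, overlap Ddit3, and Mars stood at 6.38 ± 0.277 RPKM in KO and 8.11 ± 0.779 RPKM in WT (SD, n = 3 each; log2 fold change -0.30, adjusted p = 0.054).

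Of the 10 genes, 3 were called as higher (background 3.83%) and none as lower (background 13.5%). The genes were chosen with earlier results of these data known, so these counts describe them and are no test against the background. At an unadjusted p under 0.05, 4 were higher and 1, Atf4, was lower, against 575 higher and 1957 lower of the 7574 tested genes. Limma-voom on the recovered reads also called 3 of the 10 higher and none lower. The median log2 fold change of the 7 chaperones and isomerases was 0.20, with all 7 above 0 under each scaling, and that of all tested genes was -0.09. Canx was below 0 without KO replicate 2 (-0.11) or without WT replicate 3 or 4 (-0.03 and -0.10). Every KO library lay above every WT library for 4 of the 10 genes (background 9.22%) and below for 2 (background 30.0%). In the authors' deposited table the log2 fold change was 0.47 for Hspa5, 0.38 for Hsp90b1, 0.46 for Pdia6 and 0.34 for Xbp1. The authors' deposited table gives these an FDR of 0.0608, 0.0767, 0.101 and 0.0742, so that none of the 10 is under 0.05 there, where 1.62% of the 11815 genes are. Over the 7574 tested genes the log2 fold change of the authors' deposited table exceeded the log2 ratio of mean RPKM by a median of 0.13 (5th to 95th percentile -0.03 to 0.31), so its values are not a plain ratio of the deposited RPKM.

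**Figure D3:**
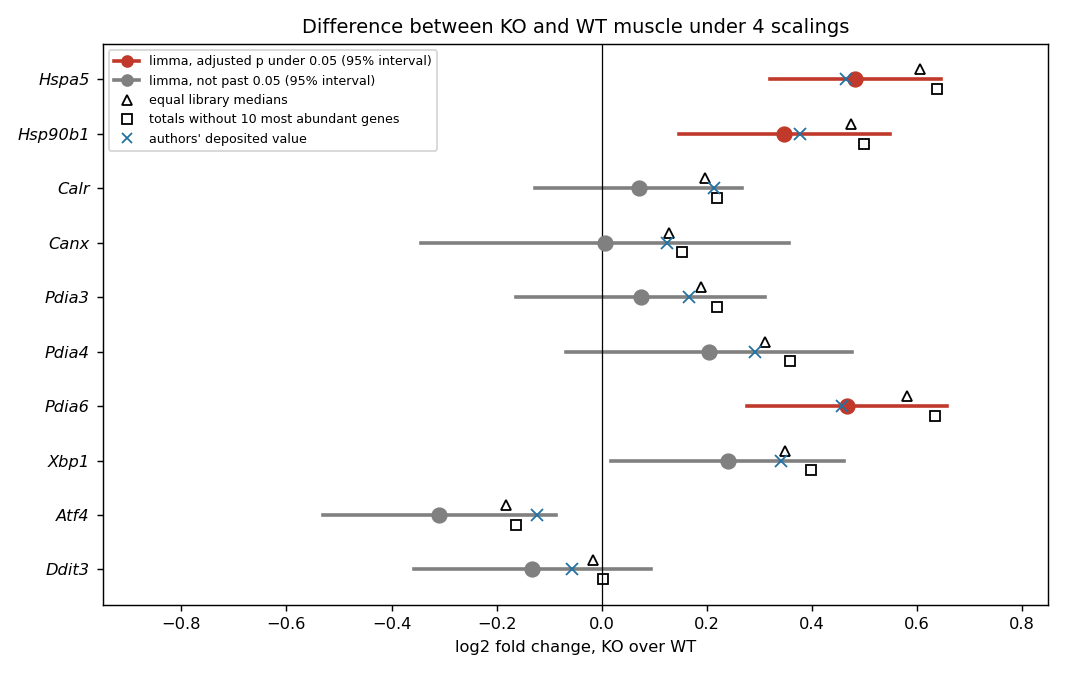
Log2 fold change of each gene, KO over WT, with its 95% interval from limma on log2(RPKM + 1); triangles and squares give the value with equal library medians and with totals without the 10 most abundant genes, crosses the authors' deposited value. Hspa5, Hsp90b1 and Pdia6 (red) lie above 0 with their whole interval, and the other scalings shift all 10 genes to the right.

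Ratios of 2 genes within a library do not depend on how the library was scaled, and 6 pairs were compared. The log2 ratio of Hspa5 to Calr was -1.75, -1.72 and -1.58 in KO and -2.18, -2.14 and -2.03 in WT, a difference of 0.43 with groups that did not overlap. The log2 ratio of Pdia6 to Pdia3 was 0.28, 0.23 and 0.41 in KO and -0.15, -0.08 and -0.18 in WT, a difference of 0.44 without overlap. Its sign, unlike the difference between groups, depends on the gene lengths behind RPKM. In reads not scaled by length, Pdia6 exceeded Pdia3 in WT too (1927, 1301 and 1674 against 1787, 1150 and 1589). Pdia4 relative to Pdia3 differed by 0.16, also without overlap. For these 3 pairs the exact permutation test (two-sided, n = 3 each) gave p = 0.1, the smallest value 3 against 3 libraries can give, and 0.2 after adjustment over the 6 pairs. The groups overlapped for Hspa5 to Hsp90b1 (difference 0.15, exact permutation p = 0.2), Calr to Canx (0.06, p = 0.8) and Ddit3 to Atf4 (0.17, p = 0.4). The 7 chaperones and isomerases summed to 226 ± 13.0 RPKM in KO and 194 ± 11.3 RPKM in WT (SD, n = 3 each). Of this sum Hspa5 made up 12.3% ± 0.681 in KO and 10.1% ± 0.577 in WT, and Calr 39.5% ± 1.37 in KO and 43.7% ± 0.997 in WT.

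**Figure D4:**
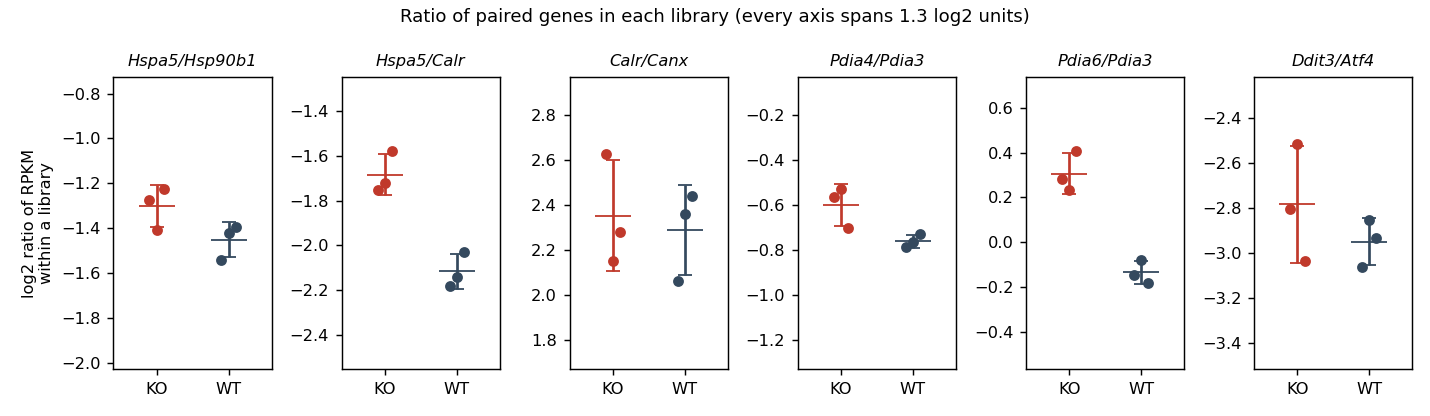
Log2 ratio of RPKM between paired genes within each KO (left) and WT (right) library; points are libraries, the bar and whiskers are the mean and SD of 3, and every axis spans the same range. KO and WT points separate for Hspa5/Calr, Pdia4/Pdia3 and Pdia6/Pdia3 and overlap for the other pairs.

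Other genes of the pathway were taken from 7 lists with 133 tested genes, also chosen with earlier results of these data known. Together 7 of these (5.26%, background 3.83%) were called as higher and 10 (7.52%, background 13.5%) as lower. With equal library medians 13 and 5 were called. Of 28 tested folding factors, 3 rose and 1 fell, with a median log2 fold change of -0.07. Manf, a stress-induced secreted protein of the endoplasmic reticulum, stood at 3.66, 3.99 and 3.90 RPKM in KO, against 2.33, 2.37 and 2.65 RPKM in WT (log2 fold change 0.49, adjusted p = 0.00655). Creld2, another stress-induced protein, stood at 5.13, 5.02 and 4.58 RPKM in KO and at 3.87, 3.61 and 3.67 RPKM in WT (0.32, adjusted p = 0.0267). Serpinh1, the collagen chaperone, rose with a log2 fold change of 0.71 (adjusted p = 0.00804), and Cnpy2 fell (-0.30, adjusted p = 0.0355). Hyou1, the large HSP70 of the lumen, was at -0.01 (adjusted p = 0.942). Of 9 other isomerases and oxidases 1 rose, the membrane thioredoxin Tmx2, at 4.63 ± 0.272 RPKM in KO and 2.21 ± 0.392 RPKM in WT (SD, n = 3 each; 0.81, adjusted p = 0.00293), with a median of 0.01. P4hb, the founding member of the isomerase family, was at -0.08 (adjusted p = 0.666).

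Among 8 tested sensors and kinases 2 fell (background 13.5%, median -0.12), Atf6 and Mbtps1. Atf6 stood at 0.864, 1.10 and 1.07 RPKM in KO and at 1.63, 1.36 and 1.33 RPKM in WT (-0.28, adjusted p = 0.0484). Mbtps1, the protease that activates Atf6, was at -0.24 (adjusted p = 0.0457). Both calls ended with equal library medians (adjusted p of 0.0554 and 0.0687) and without single libraries of either group (up to 0.164 and 0.152). Ern1 (0.411 RPKM in KO and 0.67 RPKM in WT) and Eif2ak3 (0.351 and 0.411 RPKM) were too low to be tested. Of 24 genes of degradation from the endoplasmic reticulum 3 fell (a share near the background of 13.5%; median -0.11), the lectin Os9 (-0.52, adjusted p = 0.0269), the ATPase Vcp (-0.34, adjusted p = 0.04) and Herpud2 (-0.30, adjusted p = 0.0484). Of 17 tested targets of Atf4 and Ddit3, 3 rose (background 3.83%) and 3 fell (background 13.5%), with a median of -0.03. Ppp1r15a (GADD34), which restarts translation after stress, stood at 18.1, 24.0 and 19.6 RPKM in KO, against 98.6, 67.3 and 35.8 RPKM in WT (-1.56, adjusted p = 0.0152), a wide WT range. The translation repressor Eif4ebp1 fell too (-1.24, adjusted p = 0.00994), as did Vldlr (-0.75, adjusted p = 0.047). Of the 3 that rose, the amino acid transporter Slc38a2 changed most (0.54, adjusted p = 0.00563).

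None of 20 cytosolic tRNA synthetases was called in limma (median -0.10), and limma-voom on the recovered reads called none either. At an unadjusted p under 0.05, 4 were lower and none higher, against 1957 lower and 575 higher of the 7574 tested genes. Without WT replicate 4, 5 were called as lower. Of 27 translocon genes 1 fell (background 13.5%, median 0.04), Sec62 (-0.68, adjusted p = 0.00804). Of the 15 genes called and named by rule in these lists, 6 (Manf, Serpinh1, Tmx2, Slc38a2, Eif4ebp1 and Sec62) were called under every alternative. The calls of Os9, Creld2 and Ppp1r15a ended without each of several single libraries, KO replicates 1 and 3 and WT replicate 3 among them (adjusted p of up to 0.108, 0.101 and 0.0605). Those of Cnpy2, Vcp and Herpud2 ended also with equal library medians (adjusted p of 0.181, 0.154 and 0.0577), and that of Vldlr without KO replicate 1, 2 or 3 or WT replicate 2 or 3 (up to 0.149).

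**Figure D5:**
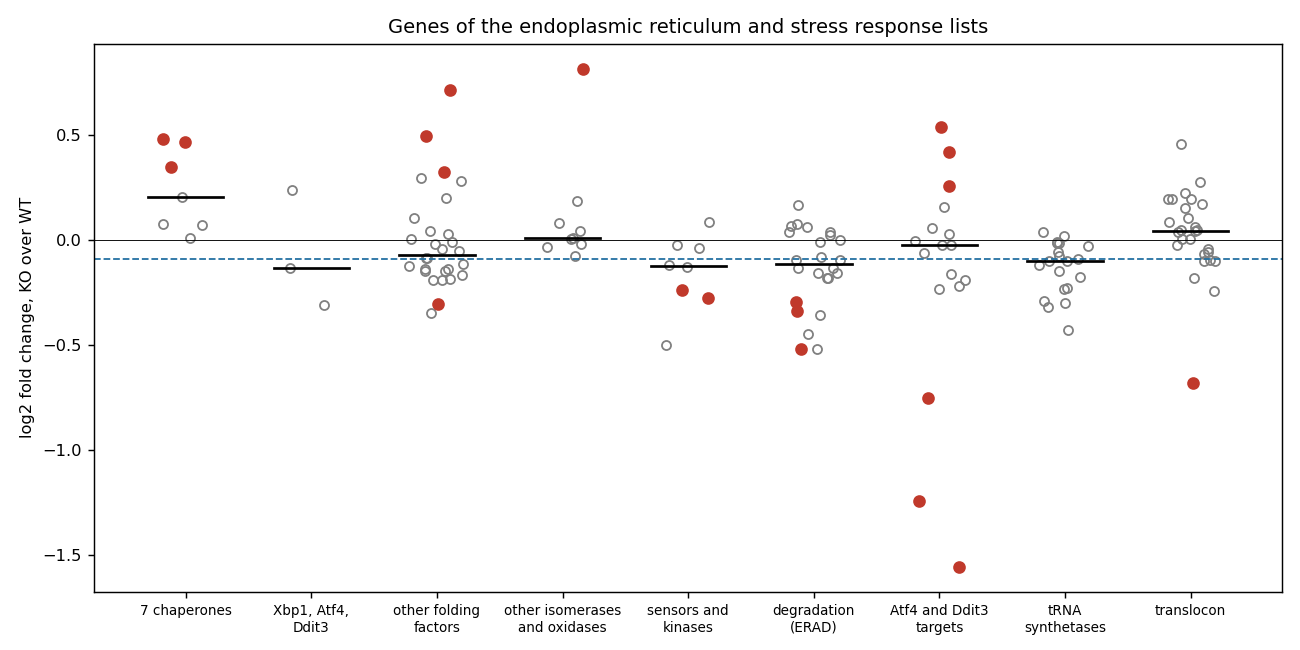
Log2 fold change, KO over WT, of each tested gene in 9 groups; red points were called at an adjusted p under 0.05, black bars are group medians and the dashed line is the median of all tested genes. All 7 chaperones and isomerases lie above 0, and the medians of the 7 pathway lists lie between -0.12 and 0.04.

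The whole ERSE was present in the windows of 37 genes, of which 14 are in the table and 10 were tested. Besides Hspa5, Hsp90b1, Calr, Canx and Pdia6, these were Creld2, which rose, and Dnajc3, Hnrnpa3, Pan2 and Acacb. These last had log2 fold changes of -0.14, -0.15, -0.22 and -0.29 and were not called (adjusted p of 0.0943 to 0.295). Of the 10 tested genes with the element 4 were called as higher (background 3.83%) and none as lower (background 13.5%). Of these 4, 3 are Hspa5, Hsp90b1 and Pdia6, already described. The 10 tested genes with the element had a median log2 fold change of 0.04. The 5 of them not described above as members had a median of -0.15, and all tested genes one of -0.09.

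Markers of other cell types were read beside these values, since secretory cells are rich in chaperones and since in bulk RNA fewer cells and less RNA per cell cannot be told apart. The heavy chain Ighm, the one plasma and B cell marker measured besides Xbp1, was at 21.6, 12.5 and 17.3 RPKM in KO, against 4.62, 2.67 and 9.28 RPKM in WT (1.57, adjusted p = 0.0207, ended without KO replicate 1 or 3). Of 8 tested fibroblast markers 2 rose (background 3.83%) and 6 were not called. Those that rose were Smoc2 and the collagen Col3a1 (0.50 and 0.47). Both calls ended without KO replicate 1, 2 or 3 or WT replicate 3 or 4, where their adjusted p reached 0.137 and 0.107. The 12 measured fibroblast markers summed to 63.0 to 80.6 RPKM in KO and 45.1 to 80.8 RPKM in WT. A large part of this came from 1 gene, Gsn (33.9 RPKM in KO and 30.5 RPKM in WT, not called). Of 5 tested Schwann cell markers 4 fell (background 13.5%), and the 8 measured summed to 11.8 to 14.7 RPKM in KO and 37.0 to 56.1 RPKM in WT. The 12 endothelial markers summed to 27.3 to 29.5 RPKM in KO and 31.2 to 47.1 RPKM in WT. Of the 10 tested 1 fell, the junction protein Cldn5 (-1.03, adjusted p = 0.00744), called under every alternative. The 5 macrophage markers summed to 4.80 to 8.05 RPKM in KO and 3.59 to 8.05 RPKM in WT, and the 1 tested was not called. The 7 markers of satellite cells and regeneration summed to 47.0 to 54.7 RPKM in KO and 40.7 to 54.3 RPKM in WT, mostly from the myosin Myh8 (39.8 RPKM in KO and 35.7 RPKM in WT). Of their 4 tested genes 1 fell, the myogenic factor Myog (-0.54, adjusted p = 0.0293), a call that ended with equal library medians (adjusted p = 0.0505) and without KO replicate 2 or 3 or WT replicate 2 or 3 (up to 0.108). Pax7, Myod1 and Ncam1 were too low to be tested. All KO libraries lay below all WT libraries for Pax7 and Myod1, as they did for 30.0% of tested genes. The groups of Ncam1, Myh3, Cdh15 and Myh8 overlapped. No measured marker of these lists was at 0 in all libraries. Their part in the chaperone values was not tested.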

How the data were processed

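The 3 KO and 3 WT gastrocnemius libraries were made from fragmented mRNA by random priming, per the labels' protocols. Titles of the samples gave genotype and replicate number. The genome build is GRCm39 per the submitters' processing notes; which aligner, counter, annotation and strand setting were used is not stated there. The authors deposited values taken here as RPKM. No unit stands in the header, and RPKM was inferred because values multiplied by length and total came to whole reads (within 0.02 of a read) for 11814 of 11815 genes. Totals were fitted with GENCODE M21 lengths, and lengths that gave no whole reads were inferred, those of Atf4 and Ddit3 among them. The deposited table also holds the authors' log2 fold change, log2 CPM, F score, p-value and FDR, per the file headers.

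The 7574 genes that reached 1 RPKM in 3 or more libraries were tested with limma-trend (limma 3.58.1, R 4.3.3) on log2(RPKM + 1), a scale that understates changes of low genes, with a genotype term alone, and p-values were adjusted by Benjamini-Hochberg over all of them, with a threshold of 0.05. SDs are of RPKM. The fit was first tested on simulated data with known changes. Pair ratios were compared by exact permutation of libraries. The alternatives were a pseudocount of 0.1, no filter, equal library medians, totals without the 10 most abundant genes, limma-voom on recovered reads, a replicate block and each library left out. All pairs of libraries within a group differed beyond sampling noise (chi-square over its degrees of freedom 37.6 or more).

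The genes and lists were chosen with earlier results of these data known. Named genes were all 10 members, and in each list up to 4 called genes with the largest change or, with none called, the one with the smallest p, and the most abundant marker of each cell type; Hyou1, P4hb, Ern1, Eif2ak3, overlapping genes and the genes with an ERSE were named after their values were seen. Not every gene the rule took is printed. Promoter sequences are from RefSeq and GRCm38.p6, not the build of the notes, and their coordinates are of GRCm38.p6 only. Python 3.11.15 with pandas 2.3.3, numpy 2.4.6, scipy 1.17.1 and matplotlib 3.10.9 did the rest.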

Additional observations from a re-analysis of the deposited data

How the results depend on the processing

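Hspa5 and Pdia6 were called higher under every alternative tried, with log2 fold changes without 1 library of 0.47 to 0.49 and 0.42 to 0.51. Hsp90b1 lost its call without KO replicate 1, 2 or 3 or WT replicate 3, and Xbp1 gained one under both rescalings and without WT replicate 2; in no other case did the call of any of the 10 genes change. The sign of 2 uncalled genes turned: Canx ranged from -0.11 to 0.15 without 1 library, and Ddit3 was 0.0023 with totals without the 10 most abundant genes. The count of the 10 genes called higher was 2 to 4 without 1 library, and none was called lower. Over all tested genes 290 were higher and 1021 lower; equal library medians gave 594 and 707, totals without the 10 most abundant genes 679 and 614, and leaving out 1 library 117 to 344 and 354 to 1293. In the pathway lists together the counts of 7 and 10 became 13 and 5 with equal medians, 14 and 4 without the 10 most abundant genes, and 4 to 8 and 2 to 18 without 1 library. The cause was not tested. The difference in the log2 ratio of Calr to Canx ranged from -0.075 to 0.17 without 1 library, and no other pair ratio changed sign. Replicate numbers are shared by 2 pairs of libraries only, and the deviations of same-numbered libraries correlated at 0.48 (number 2) and 0.27 (number 3) across genes, and those of KO replicate 1 and WT replicate 4, which share no number, at 0.43; with replicate number as a block Hspa5 was at 0.49 (adjusted p = 0.0103), and the 10 genes gave 3 calls as before. In the pathway lists the block gave 5 higher and 15 lower: the calls of Creld2, Atf6, Mbtps1, Cnpy2 and Herpud2 ended, and 4 tRNA synthetases were called lower. The spread between libraries mostly exceeded counting error, but not for Hspa5 in KO (0.282% against 1.18%) or Ddit3 in WT (0.45% against 3.11%). Ddit3 in KO replicate 2 (9.53 RPKM) and WT replicate 4 (9.58 RPKM) lay closer than its counting error. With 3 libraries a group, permutation of 1 value cannot go below p = 0.1.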
